A study of Rattus norvegicus with 31 samples.

Results

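The enzymes of glycolysis and of the tricarboxylic acid cycle were followed in motor neurons of the rat tail after the sacral spinal cord had been cut. The members were 34 genes, 17 of glycolysis (with lactate dehydrogenase) and 17 of the cycle (with the pyruvate dehydrogenase complex), and every probe set whose only gene symbol in the annotation of the array is one of them was taken. That rule found 36 of the 12919 probe sets in the deposited table, for 29 of the 9770 genes named there. Of these, 19 probe sets stood for 14 glycolytic genes and 17 for 15 genes of the cycle. No probe set carried Hk1, Pgam1, Dlat or Fh alone, and Pkm appeared only on a set that it shares with another symbol, so that these 5 genes have no value. Gapdh was measured by 3 control sets of the array, which were described and not tested. That left 33 tested probe sets, 16 of glycolysis and 17 of the cycle, for 28 genes.

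Glycolysis splits glucose into pyruvate in the cytosol and yields a little ATP, and lactate dehydrogenase interconverts pyruvate and lactate. Pyruvate that enters the mitochondrion is turned into acetyl-CoA by the pyruvate dehydrogenase complex, and the tricarboxylic acid cycle oxidizes the acetyl group and hands the electrons to the respiratory chain. Neurons rely mainly on this oxidative route for the ATP that ion pumping and synaptic transmission consume, and motor neurons, with their large cell bodies and long axons, have a high demand for it. Several steps are catalysed by isozymes that differ between tissues, as for phosphofructokinase, aldolase, enolase and lactate dehydrogenase.

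The motor neurons came from adult male Wistar rats and had been labelled retrogradely with Fluoro-Gold. They were cut out of the sacral cord by laser, and each array held the amplified RNA of 1 rat. The groups were uninjured rats (Control, n = 4) and rats taken 2 days (Spi-2, n = 6), 7 days (Spi-7, n = 5), 21 days (Spi-21, n = 8) and 60 days (Spi-60, n = 8) after complete transection of the cord in the second sacral segment, with removal of a short piece of tissue. The question put to these arrays was how transcription in motor neurons below a lesion changes from the early phase, when the tail is limp, to the late phase, when it is spastic. Both late groups (Spi-21, Spi-60) had been hybridized for an earlier study, and Control and both early groups for the present one. The study and the time after injury therefore cannot be told apart in any comparison of a late group with Control or with an early group. The comparisons of Spi-2 and of Spi-7 with Control, and of Spi-60 with Spi-21, lie within 1 study each.

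Values are normalized expression summaries on the log2 scale, on which a difference of 1 is a factor of 2. Array medians lay between 5.95 and 6.1. Of 9 listed markers of motor neurons 7 were measured, and their mean lay between 10.72 and 11.37 in every array, with the neurofilament gene Nefh at 13.75 to 14.37. Single markers in this list moved in opposite directions. Slc5a7 averaged 11.54 in Control and 10.36, 10.50, 10.43 and 10.48 in Spi-2, Spi-7, Spi-21 and Spi-60. Prph averaged 12.10 in Control and 12.69, 12.88, 12.88 and 12.90 in the same order. Chat and Mnx1 had no probe set of their own, and Isl1 was dim, with group means of 5.64 to 5.77. Markers of other cells were also present and differed between groups. Taken as the log2 of the summed linear signal, 6 of 7 oligodendrocyte markers ranged from 12.28 to 13.27 in Control, from 11.78 to 12.79 in Spi-2, from 11.78 to 12.87 in Spi-7, from 11.45 to 12.38 in Spi-21, and from 11.79 to 13.02 for the Spi-60 arrays. For 9 of 10 microglial and macrophage markers the ranges in the same order were 8.79 to 9.05, 9.75 to 10.92, 9.23 to 10.58, 8.74 to 11.00 and 9.13 to 11.06, so that all Spi-2, Spi-7 and Spi-60 arrays lay above Control. For the 5 interneuron markers they were 8.91 to 11.21, 8.57 to 10.07, 8.25 to 10.09, 7.93 to 9.26 and 8.19 to 9.55. For 6 of 7 astrocyte markers, with ranges from 11.62 to 13.26, all groups overlapped, while the astrocyte gene Gfap alone averaged 8.87, 11.32, 10.21, 10.21 and 10.70. Of 4 endothelial markers 2 were measured, with ranges of 6.63 to 7.01 in Control and 6.52 to 9.83 after injury. The part of these cells in the results below was not tested, and in RNA from bulk material fewer cells of a type and less RNA per cell cannot be told apart. The distance between the 3′ and the 5′ control sets of Gapdh, which grows as RNA molecules get shorter, ranged over 1.80 to 2.50 for Control, 2.30 to 3.38 for Spi-2, 2.38 to 3.33 for Spi-7, 1.13 to 3.54 for Spi-21 and 2.99 to 3.97 for Spi-60, without overlap between Spi-60 and Control. Spi-7 replicate 5 and Spi-21 replicates 1 to 3 had the narrowest spread of values (interquartile range 1.74 to 1.79), and results that rest on them are given with and without them where a call changed.

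The promoters of 4 members are shown because the results turn on these genes: Aldoc fell early, Pdhb fell at days 2 and 21, and Suclg1 and Sucla2 were lower at most times. Each sequence is the 250 bases before the start of the gene, 5′ to 3′ on the gene's strand (+ for all 4), from the RefSeq annotation of build GRCr8. Capitals mark ACGTG on either strand, the letters at the core of the hypoxia response element through which glycolytic genes are known to be induced. Aldoc lies at chr10:63715294-63715543, Pdhb at chr15:19182539-19182788, Suclg1 at chr4:106866079-106866328 and Sucla2 at chr15:55161644-55161893.
Aldoc: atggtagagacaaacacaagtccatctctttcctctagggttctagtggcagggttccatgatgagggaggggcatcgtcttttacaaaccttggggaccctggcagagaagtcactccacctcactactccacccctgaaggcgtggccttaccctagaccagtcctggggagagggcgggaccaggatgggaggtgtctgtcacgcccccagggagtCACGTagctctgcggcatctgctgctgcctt
Pdhb: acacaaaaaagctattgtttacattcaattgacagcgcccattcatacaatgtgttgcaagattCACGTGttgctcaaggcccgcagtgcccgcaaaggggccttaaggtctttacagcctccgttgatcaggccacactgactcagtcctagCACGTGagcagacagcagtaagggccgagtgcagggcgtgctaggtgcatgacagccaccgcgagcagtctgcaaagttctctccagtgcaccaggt
Suclg1: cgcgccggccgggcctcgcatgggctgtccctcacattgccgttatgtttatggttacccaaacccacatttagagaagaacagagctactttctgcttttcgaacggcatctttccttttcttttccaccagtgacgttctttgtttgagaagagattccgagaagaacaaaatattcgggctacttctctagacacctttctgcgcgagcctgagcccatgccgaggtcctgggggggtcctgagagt
Sucla2: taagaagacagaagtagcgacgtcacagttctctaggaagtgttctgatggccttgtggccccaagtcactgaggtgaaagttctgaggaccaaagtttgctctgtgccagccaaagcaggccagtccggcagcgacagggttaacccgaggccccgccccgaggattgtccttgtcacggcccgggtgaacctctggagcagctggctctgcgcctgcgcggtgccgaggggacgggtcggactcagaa
The window of Aldoc held 1 match and that of Pdhb 4, which are 2 copies of the palindrome CACGTG read on both strands, and those of Suclg1 and Sucla2 held none.

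A promoter was found for 32 of the 34 members, 16 in each list. ACGTG stood in 6 of 16 glycolytic windows (37.5%) and in 4 of 16 windows of the cycle (25%), against 16.9% of 27457 promoters of the same length. CCAAT on either strand was found in 4 of 16 glycolytic windows (25%) and 8 of 16 cycle windows (50%), against 34.3% of all. Of the other 4 motifs searched on both strands, CACGTG, which overlaps ACGTG, was in 1 and 2 windows (5.79% of all promoters), TATAAA in 1 and 1 (13.1%), the NRF1 site in 1 and 0 (0.849%) and AAGGTCA in 0 and 0 (3.77%). These are counts of letters in short windows and not of bound sites.

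Over the 5 groups, the moderated F-test of limma passed at a false discovery rate (FDR) of 0.02 for 8 of the 33 tested sets (24.2%), against 16.2% of all 12913 sets tested. These were 5 of 16 glycolytic sets (31.2%), namely Gpi, Pfkm, Aldoa, Aldoc and Eno1, and 3 of 17 sets of the cycle (17.6%), namely Dld, Suclg1 and Sucla2. Each of the 15 calls of the cycle list against Control was a lower level after injury, at all 4 times, whereas glycolysis had 4 lower calls at days 2, 7 and 21 and 2 higher calls at day 60.

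At day 2 the cycle list had 4 of 17 sets lower and 0 higher at an adjusted p under 0.05, and glycolysis 2 of 16 lower and 0 higher. Of all tested sets 4.98% were called lower and 3.9% higher. At an unadjusted p under 0.05, 3 glycolytic sets were lower and 1 higher, and 6 sets of the cycle lower and 0 higher. Of all 12913 sets, 1532 were lower and 1420 higher at that threshold. At day 7 each list had 1 lower call, against 1.67% lower and 0.914% higher of all sets. At day 21 the cycle list had 6 lower calls and glycolysis 1, against 10.7% lower and 5.94% higher of all sets. After a further quantile normalization of the values glycolysis had 0 lower and 2 higher calls at day 21. At day 60 the cycle list had 4 lower calls and glycolysis 2 higher ones, against 9.89% lower and 7.2% higher of all sets. Of the cycle list 4, 5, 3 and 4 sets had all injured animals below all Control animals at days 2, 7, 21 and 60, against 5.33%, 5.45%, 4.98% and 7.46% of all sets. Glycolysis had 2 such sets at day 2 and 3 at day 7, and 1 set at each of these days with all injured animals above Control (4.06% and 3.78% of all sets), and none at days 21 and 60 (2.35% and 5.33% of all sets higher). The median log2 change of the cycle list was -0.21, -0.11, -0.27 and -0.15 at days 2, 7, 21 and 60, and that of glycolysis 0.03, 0.02, -0.12 and 0.08, while the median of all tested sets was between 0.00 and 0.01.

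**Figure D1:**
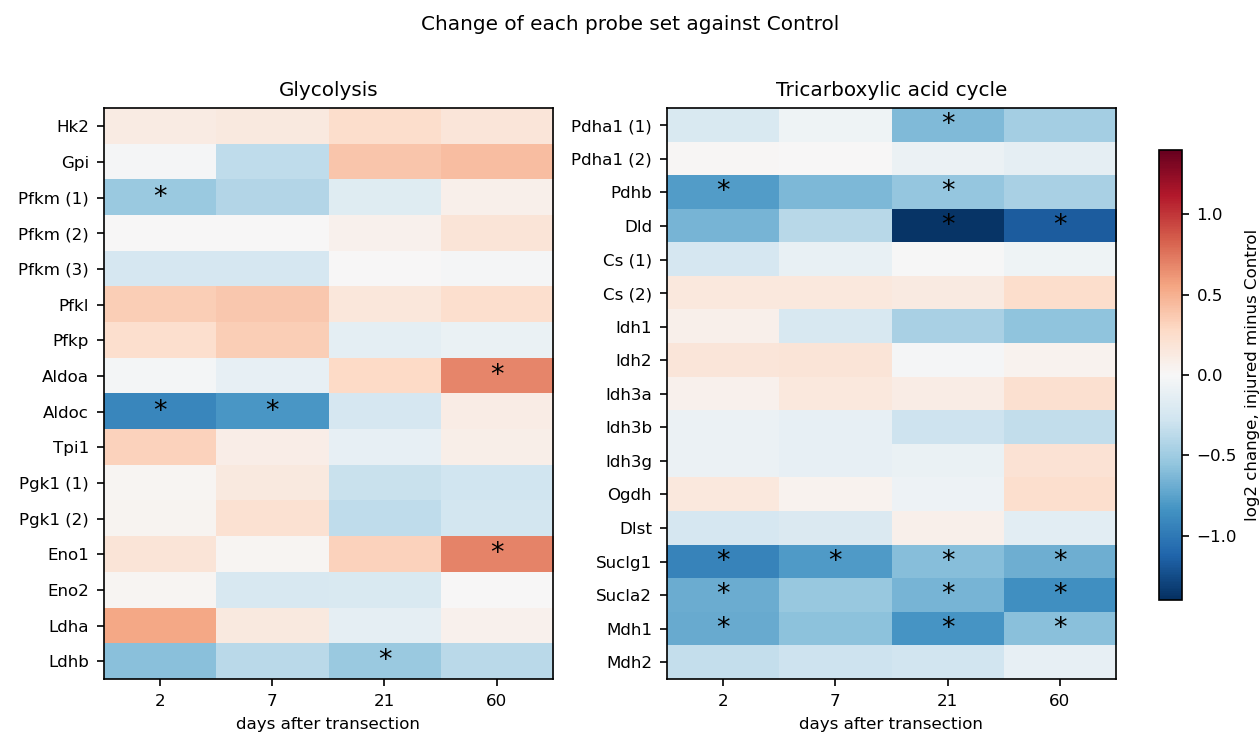
Log2 change against Control (colour; blue lower, red higher after injury) of each tested probe set in rows and of each day after transection in columns, glycolysis on the left and the cycle on the right, with a star where the adjusted p was under 0.05. The stars of the cycle list all lie on blue fields and include Suclg1 at all 4 days, and those of glycolysis are blue for Pfkm, Aldoc and Ldhb and red for Aldoa and Eno1 at day 60.

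Averaged over 15 genes, 1 probe set per gene, the cycle list lay below the Control mean in all 27 injured animals, with values of -0.11 to 0.13 in Control, -0.49 to -0.07 in Spi-2, -0.51 to -0.12 in Spi-7, -0.66 to -0.15 (Spi-21) and -0.49 to -0.14 (Spi-60). The mean over 13 glycolytic genes lay between -0.31 and 0.36 in injured animals and between -0.09 and 0.09 in Control. The difference of the list means, glycolysis minus cycle, was 0.00 ± 0.07 in the Control animals (mean ± SD), 0.28 ± 0.12 in Spi-2, 0.16 ± 0.10 in Spi-7, 0.34 ± 0.15 in Spi-21 and 0.45 ± 0.23 in Spi-60, with 4, 6, 5, 8 and 8 animals. All animals of Spi-2, Spi-21 and Spi-60 lay above the highest Control value of 0.11, and Spi-7 overlapped with it. These differences describe the members, which were chosen with results known, and were not tested.

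**Figure D2:**
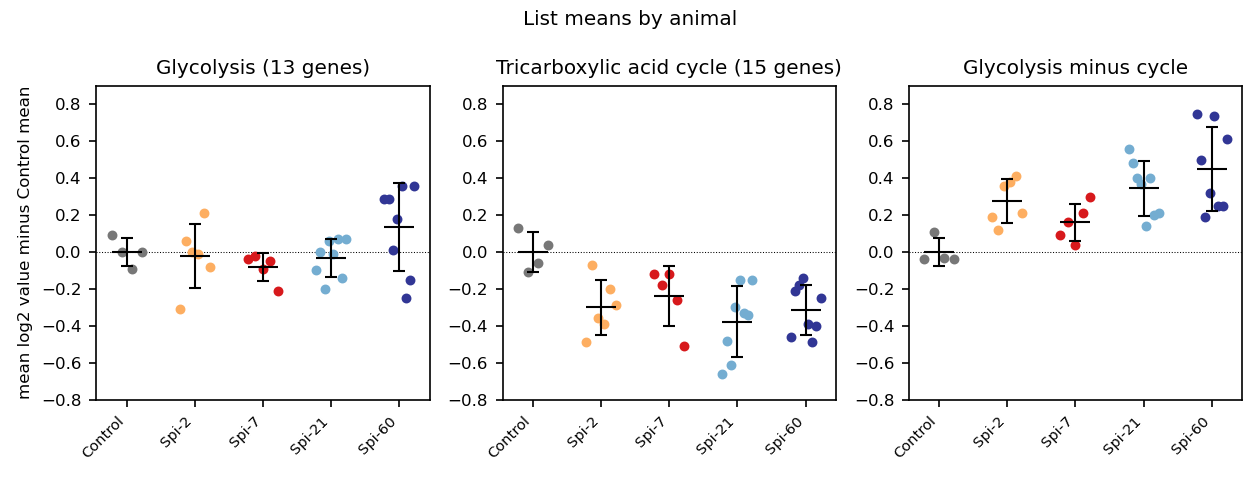
Mean log2 value over the genes of a list minus the Control mean of that list, for glycolysis, for the cycle and for their difference (vertical axes), with 1 point per animal in each of the 5 groups and the mean ± SD in black. Every injured animal lies below 0 in the cycle panel and above 0 in the difference panel, and the glycolysis panel spreads around 0, from -0.31 to 0.36.

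At the entry of glycolysis, Hk2, a hexokinase that phosphorylates glucose, was dim and had no call, with log2 changes of 0.12 to 0.25 at the 4 times. Gpi, which converts glucose-6-phosphate into fructose-6-phosphate, passed the F-test (FDR 0.0022). Its log2 values were 7.10, 7.41, 7.01 and 7.31 in Control, 6.87, 7.20 and 7.47 (lowest, median, highest) in Spi-2 and 6.73, 6.93, 6.83, 6.81 and 6.97 in Spi-7. In Spi-21 they were 6.88, 7.67 and 8.19 and in Spi-60 7.09, 7.60 and 8.10. All Spi-7 animals lay below all Control animals, and 6 of 8 animals of each late group lay above them, yet no single time passed against Control: the log2 change was -0.35 ± 0.19 at day 7 (SE, adjusted p = 0.36), 0.39 ± 0.17 at day 21 (adjusted p = 0.11) and 0.43 ± 0.17 at day 60 (adjusted p = 0.0798). The late groups were 0.59 ± 0.11 above the early ones (adjusted p = 0.000375).

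Phosphofructokinase commits the sugar to glycolysis and has 3 isozymes named for muscle, liver and platelets. The brightest set of Pfkm had values of 8.98, 8.31, 8.44 and 8.58 in Control, 7.67, 8.13 and 8.23 in Spi-2 and 7.95, 8.18, 8.21, 8.29 and 8.21 in Spi-7, and 7.98, 8.47 and 8.69 in Spi-21 and 8.45, 8.63 and 8.87 in Spi-60. Every early animal was below every Control animal. Pfkm fell at day 2 by 0.52 on the log2 scale (SE 0.14, limma adjusted p = 0.0183), a fold of 0.699, and the change at day 7 was -0.41 ± 0.15 (adjusted p = 0.134). Without Control replicate 1 the change at day 2 was -0.38 (adjusted p = 0.116). The other 2 sets of Pfkm were dim, with group means of 5.47 to 5.97, and had no call. Pfkl was also dim, with a mean of 5.44 over all arrays. It had changes of 0.34 ± 0.12 at day 2 (adjusted p = 0.0694) and 0.38 ± 0.12 at day 7 (adjusted p = 0.094), with all Spi-7 animals, at 5.48 to 5.66, above all Control animals, at 4.81 to 5.47. Pfkp had changes of 0.23, 0.34, -0.14 and -0.09 at days 2, 7, 21 and 60 with no call against Control, and a late minus early difference of -0.40 ± 0.14 (adjusted p = 0.0424), a call that was lost in 17 of 39 other settings.

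Aldolase splits fructose-1,6-bisphosphate, and Aldoc is the form typical of brain and Aldoa that of muscle. Aldoc gave the strongest result of the glycolytic list (F-test FDR 7.24e-05). Its values were 12.54, 12.28, 12.16 and 12.17 in Control, 11.00, 11.34 and 11.81 in Spi-2 and 11.22, 11.42, 11.28, 11.54 and 11.86 in Spi-7, and 11.65, 12.08 and 12.25 in Spi-21 and 11.72, 12.54 and 12.90 in Spi-60. All early animals were below all Control animals, whereas both late groups overlapped with Control. Aldoc fell by 0.91 at day 2 (SE 0.18, adjusted p = 0.00182), a fold of 0.532, and by 0.82 at day 7 (SE 0.19, adjusted p = 0.0133), a fold of 0.565, and its changes were -0.23 at day 21 and 0.10 at day 60 without a call. Late groups were 0.80 ± 0.11 above early ones (adjusted p = 1.73e-05). Without Control replicate 1 the change at day 7 was -0.74 (adjusted p = 0.0696). Aldoc is also known as a marker of astrocytes in the brain. Of 6 measured astrocyte markers, Gfap rose at day 2 by 2.45 ± 0.42 (adjusted p = 0.000461), and the other 5 had changes of -0.52 (S100b), -0.43 (Gja1), -0.35 (Slc1a3), -0.19 (Slc1a2) and -0.08 (Aqp4) without a call. S100b was also 0.43 ± 0.11 higher late than early (adjusted p = 0.00617), as Aldoc was, and Slc1a3 had a late minus early difference of -0.56 ± 0.20 (adjusted p = 0.0378). The part of astrocytes in the course of Aldoc was not tested.

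Aldoa had values of 11.50, 11.50, 11.39 and 11.38 in Control, 11.14, 11.42 and 11.67 in Spi-2 and 11.39, 11.28, 11.20, 11.34 and 11.39 in Spi-7, and 11.39, 11.72 and 11.95 in Spi-21 and 11.37, 12.24 and 12.86 in Spi-60. Spi-60 was the most scattered group, with 6 of 8 animals above all Control animals and the lowest below them. Aldoa rose at day 60 by 0.68 ± 0.19 (adjusted p = 0.0132), a fold of 1.6, and was 0.56 ± 0.12 higher late than early (adjusted p = 0.00168). Eno1, the enolase found in most tissues, had a like course. Its values were 8.44, 8.16, 8.06 and 8.00 in Control, 8.11, 8.30 and 8.61 in Spi-2 and 8.28, 8.24, 8.10, 8.23 and 8.14 in Spi-7, and 8.13, 8.46 and 8.90 in Spi-21 and 8.14, 9.06 and 9.44 in Spi-60. Eno1 rose at day 60 by 0.69 ± 0.19 (adjusted p = 0.0117), a fold of 1.62, with an overlap between the groups, and was 0.40 ± 0.12 higher late than early (adjusted p = 0.0177). With the 3′ to 5′ distance of Gapdh in the fit, which was itself highest in Spi-60, the changes at day 60 were 0.45 for Aldoa (adjusted p = 0.326) and 0.49 for Eno1 (adjusted p = 0.291).

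**Figure D3:**
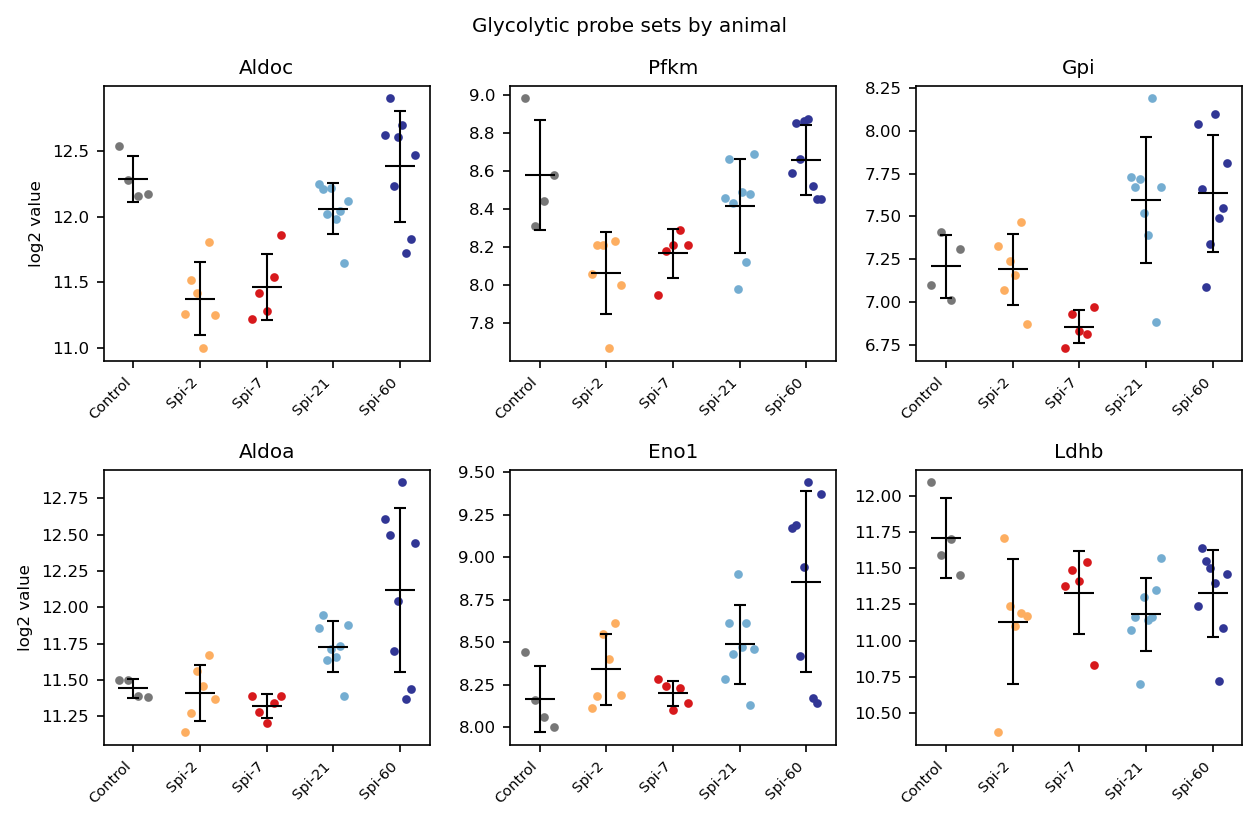
Log2 values (vertical axes, each panel with its own range) of Aldoc, Pfkm, Gpi, Aldoa, Eno1 and Ldhb in the 5 groups, 1 point per animal, with the mean ± SD in black. Aldoc and Pfkm lie below all Control animals in Spi-2 and Spi-7 and overlap with them later, while Aldoa and Eno1 spread upward in Spi-60, to 12.86 and 9.44.

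The other steps down to pyruvate had few calls. Tpi1, which interconverts the triose phosphates, had changes of -0.11 to 0.32 with no call. Pgk1, which makes ATP from 1,3-bisphosphoglycerate, had no call against Control, but both its sets were lower late than early, with differences of -0.38 ± 0.11 (adjusted p = 0.0111) and -0.44 ± 0.14 (adjusted p = 0.0198). The brighter set had values of 11.43, 12.08 and 12.16 in Spi-2, 12.36, 12.47, 12.22, 11.92 and 11.32 in Spi-7, 11.21, 11.60 and 12.04 in Spi-21 and 11.39, 11.66 and 11.87 in Spi-60, so that the early and late ranges overlapped. Eno2, the neuronal enolase, had changes of -0.22 to 0.03 and no call.

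Gapdh, which oxidizes glyceraldehyde-3-phosphate, gave a different picture with each of its 3 control sets. The 3′ set averaged 9.42 ± 0.19 in Control (SD, n = 4), 9.57 ± 0.31 in Spi-2, 9.39 ± 0.32 in Spi-7, 9.65 ± 0.51 in Spi-21 and 10.28 ± 0.45 in Spi-60. The 5′ set averaged 7.40 ± 0.24, 6.75 ± 0.30, 6.38 ± 0.08, 7.37 ± 0.51 and 6.79 ± 0.36 in the same order. In Spi-60 the 3′ set was thus above Control and the 5′ set below it. The middle set, at 7.73 ± 0.14, 7.57 ± 0.31, 7.32 ± 0.09, 7.96 ± 0.17 and 8.02 ± 0.36, had all Spi-7 animals below all Control animals.

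**Figure D4:**
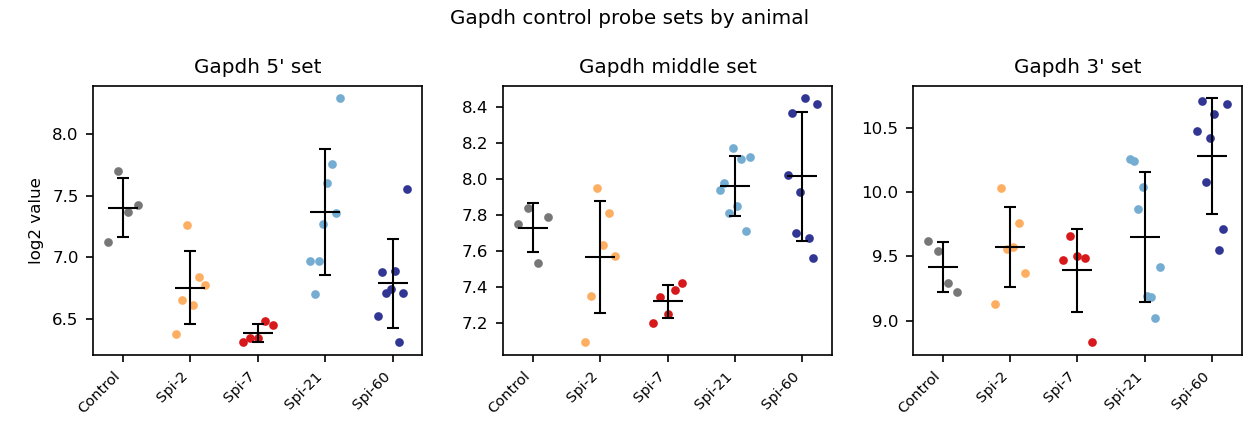
Log2 values (vertical axes, each panel with its own range) of the 5′, middle and 3′ control sets of Gapdh in the 5 groups, 1 point per animal, with the mean ± SD in black. In Spi-60 the 3′ set averaged 10.28 against 9.42 in Control and the 5′ set 6.79 against 7.40.

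Lactate dehydrogenase is built of Ldha and Ldhb subunits, of which Ldhb is abundant in tissues that oxidize lactate. Ldha had values of 8.30, 8.56 and 9.38 in Spi-2 and 8.12, 8.18, 8.14 and 8.28 in Control, without overlap, but its change of 0.54 ± 0.30 did not pass (adjusted p = 0.284). Ldhb had values of 12.09, 11.59, 11.70 and 11.45 in Control, 10.37, 11.18 and 11.71 in Spi-2, 11.38, 11.49, 11.41, 11.54 and 10.83 in Spi-7, 10.70, 11.16 and 11.57 in Spi-21 and 10.72, 11.43 and 11.64 in Spi-60, and all groups overlapped with Control. The change at day 2 was -0.58 ± 0.19 (adjusted p = 0.0586). Ldhb fell by 0.52 at day 21 (SE 0.18, adjusted p = 0.048), a call lost in 25 of 39 other settings.

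The pyruvate dehydrogenase complex joins glycolysis to the cycle, with Pdha1 and Pdhb as the subunits of its first enzyme and Dld as the third enzyme, which the oxoglutarate dehydrogenase complex shares. Pdhb had values of 10.78, 10.58, 10.73 and 10.84 in Control, 9.54, 9.95 and 10.41 in Spi-2 and 10.02, 10.22, 10.28, 9.85 and 10.17 in Spi-7, and 9.85, 10.07 and 10.61 in Spi-21 and 9.70, 10.36 and 10.70 in Spi-60. No early animal reached the lowest Control value, and both late groups overlapped with Control. Pdhb fell by 0.78 at day 2 (SE 0.18, adjusted p = 0.00635), a fold of 0.583, and by 0.54 at day 21 (SE 0.17, adjusted p = 0.0291), and its changes were -0.63 ± 0.19 at day 7 (adjusted p = 0.0689) and -0.45 ± 0.17 at day 60 (adjusted p = 0.0676). The brighter set of Pdha1 had values of 8.35, 9.04 and 9.52 in Spi-21 and of 9.79, 9.59, 9.50 and 9.60 in Control, which overlapped. Pdha1 fell by 0.62 at day 21 (SE 0.20, adjusted p = 0.036) with a late minus early difference of -0.42 ± 0.13 (adjusted p = 0.0214), while its second set, with group means of 5.98 to 6.12, had no call. At day 2 the changes of these 2 subunits of the same enzyme were -0.21 for Pdha1 and -0.78 for Pdhb.

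Dld had the largest decrease of all members. Its values were 7.64, 7.71, 7.78 and 8.17 in Control, 6.63, 7.12 and 7.87 in Spi-2 and 7.92, 7.51, 7.80, 7.62 and 6.34 in Spi-7, and 5.59, 6.65 and 7.34 in Spi-21 and 5.70, 6.81 and 7.12 in Spi-60. All 16 late animals were below all Control animals, and the early groups overlapped with Control. Dld fell by 1.37 at day 21 (SE 0.30, adjusted p = 0.00332), a fold of 0.388, and by 1.17 at day 60 (SE 0.30, adjusted p = 0.00825), a fold of 0.445, with a late minus early difference of -0.75 ± 0.19 (adjusted p = 0.0068). The call at day 21 held in all 39 other settings, including the fit without Spi-21 replicates 1 to 3.

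Of the enzymes that open the cycle, Cs, the citrate synthase, had changes of -0.24 to 0.25 over both of its dim sets, without a call. Idh1 is the cytosolic isocitrate dehydrogenase and makes NADPH. It had values of 9.49, 10.11 and 10.47 in Spi-60 and 10.53, 10.67, 10.52 and 10.64 in Control, without overlap, and a change of -0.56 ± 0.20 at day 60 (adjusted p = 0.0516). Its late minus early difference was -0.43 ± 0.13 (adjusted p = 0.0174). The mitochondrial Idh2 and the 3 subunits of the NAD-dependent enzyme, Idh3a, Idh3b and Idh3g, had changes between -0.34 and 0.22 and no call. Ogdh and Dlst, which with Dld make up the oxoglutarate dehydrogenase complex, had changes between -0.23 and 0.23 and no call.

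Succinyl-CoA ligase makes the only nucleoside triphosphate formed directly in the cycle, and Suclg1 encodes its common alpha subunit and Sucla2 the beta subunit of the ATP-forming enzyme. Suclg1 had values of 9.31, 8.64, 8.65 and 9.04 in Control, 7.74, 7.95 and 8.30 in Spi-2 and 8.17, 8.20, 8.25, 7.85 and 8.12 in Spi-7, and 7.90, 8.30 and 8.67 in Spi-21 and 7.71, 8.31 and 8.51 in Spi-60. The injured groups lay below all Control animals, except for Spi-21, whose highest value of 8.67 lay above the lowest Control values of 8.64 and 8.65. Suclg1 fell by 0.93 at day 2 (SE 0.15, adjusted p = 0.000271) and by 0.79 at day 7 (SE 0.16, adjusted p = 0.0048). It fell by 0.60 at day 21 (SE 0.14, adjusted p = 0.00541) and by 0.68 at day 60 (SE 0.14, adjusted p = 0.00164). These changes are folds of 0.527, 0.578, 0.661 and 0.626. It was the only tested member called at all 4 times.

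Sucla2 had values of 10.82, 10.72, 10.92 and 11.00 in Control, 9.96, 10.10 and 10.63 in Spi-2 and 10.45, 10.56, 10.42, 10.27 and 9.99 in Spi-7, and 9.65, 10.39 and 10.57 in Spi-21 and 9.59, 10.03 and 10.36 in Spi-60. All 27 injured animals were below all 4 Control animals. Sucla2 fell by 0.70 at day 2 (SE 0.17, adjusted p = 0.00996), by 0.65 at day 21 (SE 0.16, adjusted p = 0.00836) and by 0.86 at day 60 (SE 0.16, adjusted p = 0.000743), and its change at day 7 was -0.53 ± 0.18 (adjusted p = 0.117). With the 3′ to 5′ distance of Gapdh in the fit, the change of Sucla2 at day 2 was -0.53 (adjusted p = 0.0645), and the changes at day 60 were -0.55 for Suclg1 (adjusted p = 0.106), -0.55 for Sucla2 (adjusted p = 0.13) and -0.71 for Dld (adjusted p = 0.326).

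Malate dehydrogenase closes the cycle in the mitochondrion (Mdh2) and serves the malate-aspartate shuttle in the cytosol (Mdh1). Mdh1 had values of 12.73, 12.20, 12.36 and 12.23 in Control, 11.25, 11.71 and 11.94 in Spi-2 and 12.00, 12.01, 12.04, 11.82 and 11.19 in Spi-7, and 10.80, 11.56 and 12.00 in Spi-21 and 11.19, 11.72 and 12.30 in Spi-60. Only Spi-60 overlapped with Control. Mdh1 fell by 0.71 at day 2 (SE 0.22, adjusted p = 0.0359), by 0.83 at day 21 (SE 0.21, adjusted p = 0.00702) and by 0.58 at day 60 (SE 0.21, adjusted p = 0.0497), with a change of -0.57 ± 0.23 at day 7 (adjusted p = 0.198). Its calls at days 2 and 60 were lost in 11 and 25 of 39 other settings, among them without Control replicate 1, with changes of -0.59 (adjusted p = 0.142) and -0.46 (adjusted p = 0.18). Mdh2 had changes of -0.33 to -0.11 and no call, although all Spi-7 animals, at 8.68 to 9.09, were below all Control animals, at 9.15 to 9.43.

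**Figure D5:**
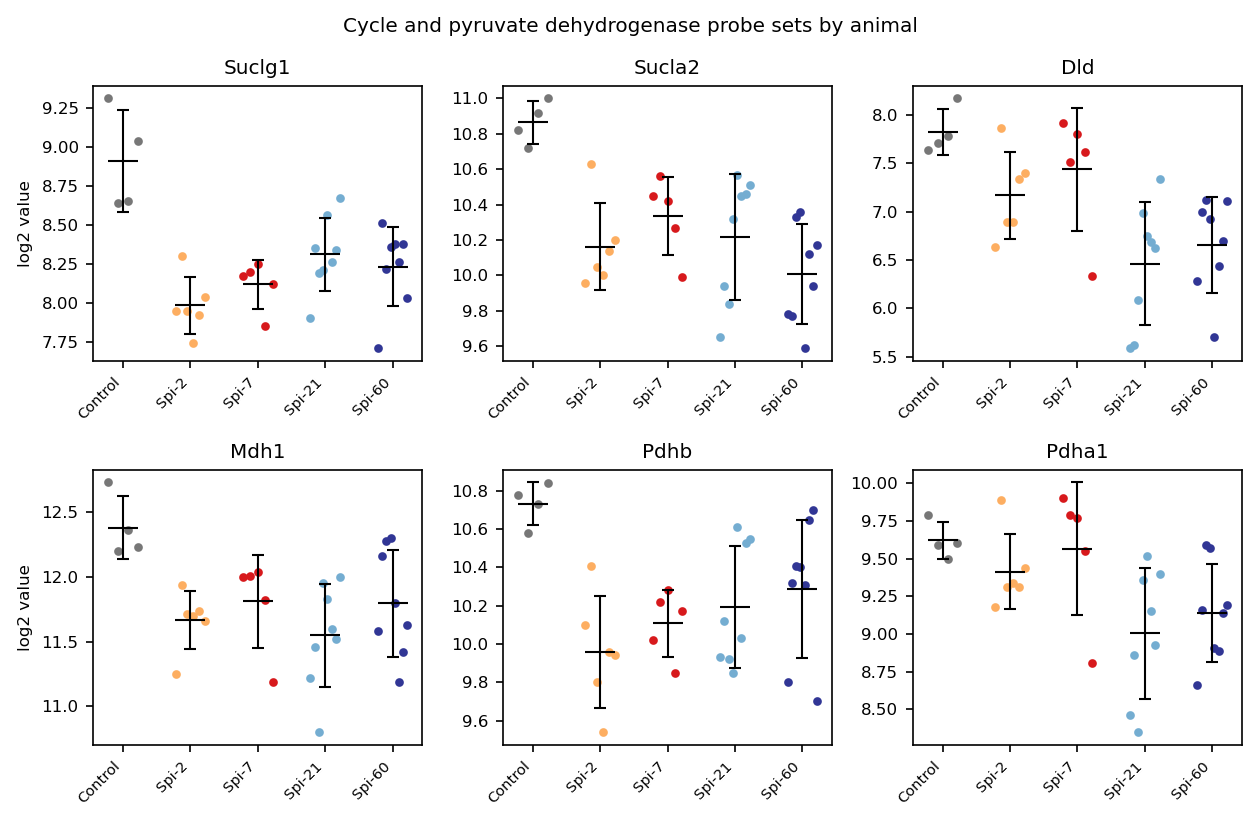
Log2 values (vertical axes, each panel with its own range) of Suclg1, Sucla2, Dld, Mdh1, Pdhb and Pdha1 in the 5 groups, 1 point per animal, with the mean ± SD in black. All injured animals lie below all Control animals for Sucla2, and all Spi-21 and Spi-60 animals lie below them for Dld.

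Of the 8 Spi-21 arrays 3 bear on the calls at day 21. Spi-21 replicates 1 to 3 had the lowest mean levels of the cycle list in their group, -0.66, -0.48 and -0.61. They also had its largest 3′ to 5′ distances of Gapdh, 3.29, 3.54 and 2.9, against 2.76, 1.58, 1.43, 1.66 and 1.13 in replicates 4 to 8. With this distance in the fit, Ldhb (-0.54, adjusted p = 0.0517) and Pdha1 (-0.58, adjusted p = 0.0521) lost their calls at day 21. The calls of Dld, Suclg1, Sucla2, Mdh1 and Pdhb at day 21 held in that fit. Over all sets it called 1958 at day 21, against 2148 without the distance. How much of each change goes with RNA length was not tested. Without Spi-21 replicates 1 to 3, 1 set of the cycle, Dld, and none of glycolysis was called at day 21. Over all sets 680 were called at day 21 without these arrays, against 2148 with them. The changes were then -0.50 for Suclg1 (adjusted p = 0.0504), -0.40 for Sucla2 (adjusted p = 0.104), -0.60 for Mdh1 (adjusted p = 0.0758), -0.42 for Pdhb (adjusted p = 0.181), -0.35 for Pdha1 (adjusted p = 0.293) and -0.40 for Ldhb (adjusted p = 0.233). Without Control replicate 1 the changes at day 21 were -0.53 for Pdhb (adjusted p = 0.0708), -0.56 for Pdha1 (adjusted p = 0.102) and -0.40 for Ldhb (adjusted p = 0.191). In Spi-7, replicate 5 had the lowest values of the group for Dld, Mdh1, Mdh2, Ldhb, Pdha1 and Idh3b, among others.

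Of comparisons between injured groups at single times, day 7 against day 2 and day 60 against day 21 were made. For day 7 against day 2, limma called 0 of 33 member sets and 0% of all sets. At an unadjusted p under 0.05, 0 member sets passed, against 313 lower and 147 higher of all 12913 sets. For day 60 against day 21, within the earlier study, it called 0 of 33, against 0.0697% of all sets. At an unadjusted p under 0.05, 6 member sets were higher, 5 of glycolysis and 1 of the cycle, and 0 lower. Of all 12913 sets, 869 were higher and 694 lower at that threshold. Of the late against the early groups, 3 glycolytic sets were lower and 5 higher and 3 sets of the cycle were lower, against 12.2% lower and 11% higher of all sets. The higher ones were Gpi, Pfkm, Aldoa, Aldoc and Eno1 and the lower ones Pfkp, both sets of Pgk1, Pdha1, Dld and Idh1. Without Spi-21 replicates 1 to 3 the calls were lost for Pfkp, at -0.27 (adjusted p = 0.182), 1 set of Pgk1, at -0.34 (adjusted p = 0.0817), Pdha1, at -0.28 (adjusted p = 0.102), and Idh1, at -0.32 (adjusted p = 0.0817).

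Genes listed under the same role made 12 pairs, either isozymes or subunits of 1 enzyme or complex. For each pair, the difference between 2 probe sets of the same array was also set against Control at the 4 times. The choice was made after values had been seen, so these 48 differences are given as a description. Aldoa minus Aldoc was above all Control animals at all 4 times, by 0.88, 0.70, 0.51 and 0.58 at days 2, 7, 21 and 60, also in the late groups, in which each of the genes alone overlapped with Control. Pfkm minus the dim Pfkl changed by -0.85 at day 2 and -0.79 at day 7 and Ldha minus Ldhb by 1.12 at day 2, each without overlap. Pdha1 minus Pdhb changed by 0.57 at day 2, also without overlap. Idh3a minus Idh3b, which are subunits of 1 enzyme and not isozymes, changed by 0.39 at day 21 and 0.57 at day 60. Both differences were without overlap, although neither set was called alone. The difference of Suclg1 and Sucla2, which fell together, changed by -0.27 to 0.18 and always overlapped with Control. All differences not named here overlapped with Control too.

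Further lists of neighbouring pathways, with the brightest set of each gene, show what surrounded the members. The counts here and in the next paragraph stand beside the shares called over all tested sets. These shares were 4.98% lower and 3.9% higher at day 2 and 1.67% and 0.914% at day 7. They were 10.7% and 5.94% at day 21 and 9.89% and 7.2% at day 60. With so few genes per list, a count of 1 is not a result about the list. Among 8 measured of 11 other enzymes of the cycle, 3 were lower at day 2, 4 at day 21 and 1 at day 60, and none was higher. Sdha, the flavoprotein of succinate dehydrogenase, fell by 0.61 at day 2 (SE 0.13, adjusted p = 0.00277), by 0.56 at day 21 and by 0.53 at day 60, and Sdhc, a membrane anchor of the same enzyme, fell by 0.52 at day 2 and 0.47 at day 21. Sdhd, the other anchor, fell by 0.74 at day 21. Suclg2, the beta subunit of the GTP-forming succinyl-CoA ligase, fell by 0.52 at day 2 and by 0.43 at day 21, so that each of the 3 measured subunits of this ligase was lower at both times. Among 11 measured of 12 genes of pyruvate entry and of the control of pyruvate dehydrogenase, 3 were lower and 1 higher at day 2, 5 lower at day 21 and 3 lower at day 60. Mpc2, a subunit of the mitochondrial pyruvate carrier, fell by 0.85, 0.92 and 0.81 at days 2, 21 and 60, and Lias, which makes the lipoyl group that the dehydrogenase complexes need, fell by 0.60, 0.72 and 0.73. Pdp2, a phosphatase that activates pyruvate dehydrogenase, rose by 0.61 ± 0.16 at day 2 (adjusted p = 0.0146). The brighter phosphatase gene Pdp1 (mean 6.62, against 5.92 for Pdp2) went the other way. Its change was -0.67 ± 0.23 at day 2 (adjusted p = 0.0694) and -0.68 ± 0.22 at day 21 (adjusted p = 0.0339). Pdk2, a kinase that inactivates it, had no call against Control and was 0.76 ± 0.13 higher late than early.

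Among 6 measured of 8 genes of the redox shuttles, 1 was lower at each of days 2 and 7, and 2 at each of days 21 and 60. Got1, the cytosolic aspartate aminotransferase that works with Mdh1, fell by 1.07, 0.91, 0.80 and 0.66 at days 2, 7, 21 and 60 (adjusted p = 0.000739, 0.00999, 0.00432 and 0.0132), and Slc25a12, an aspartate-glutamate carrier, fell by 0.54 at day 21 and 0.43 at day 60. Among 11 measured of 16 other glycolytic and fructose-2,6-bisphosphate enzymes, 1 was lower and 1 higher at day 21, and 1 was higher at day 60. These were Bpgm, the bisphosphoglycerate mutase, at -0.60, the dim Gapdhs at 0.35 and the dim Pfkfb1 at 0.34. Among 11 measured of 14 genes of glycogen metabolism, 1 was lower and 1 higher at day 2, 1 lower at day 21, and at day 60 1 lower and 3 higher. Pygb, the brain glycogen phosphorylase, rose by 0.52 ± 0.14 at day 60 (adjusted p = 0.0106), and Ugp2, which makes UDP-glucose, fell by 0.91, 1.24 and 1.06 at days 2, 21 and 60. Among 5 measured of 8 genes of the pentose phosphate pathway, Pgls rose by 0.54 and Tkt fell by 0.42 at day 60. Rpe, an epimerase of this pathway, had no call against Control and a late minus early difference of -0.79 ± 0.14. Pygm, the muscle glycogen phosphorylase, and Pgm2, a phosphoglucomutase, likewise differed only between late and early groups, by 0.41 and by -0.82. Among 7 measured of 8 anaplerotic and cycle-linked genes limma called 0 in any contrast, and the smallest F-test FDR were 0.222 for Pck2 and 0.278 for Glud1.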

How the data were processed

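Motor neurons of the rat tail, labelled with Fluoro-Gold and cut out by laser, were pooled per rat, and their RNA was amplified over 2 rounds and hybridized to the Affymetrix RAT230_2 array. The authors dropped probe sets without an Ensembl annotation, applied background correction and quantile normalization at the probe level, summarized probes by RMA (version not given in the sources used here), normalized the summaries once more and deposited log2 values for 12919 sets, kept here as they are (range 0 to 14.37). Such quantile normalization gives all arrays a like distribution, so that a shift of all genes would not be seen. Genes were named from the platform annotation: 11880 of the 12913 tested sets carried 1 symbol, 320 several and 713 none. The members and the gene lists were chosen with earlier results of these data known. The text names every member and, from each other list, the 2 to 4 genes whose F-test p was smallest, and the brightest set leads where a gene has several. Pdp1 was named in addition, beside Pdp2.

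A model with 1 mean per group was fitted with limma 3.58.1 (R 4.3.3) over all 31 arrays and the 12913 sets that are not array controls. An FDR (Benjamini-Hochberg) under 0.02 counted as a call of the F-test and an adjusted p under 0.05 as a call of a contrast, both adjusted over all sets. Late minus early is the mean of Spi-21 and Spi-60 less that of Spi-2 and Spi-7. Intensities are limited in precision by the number of arrays, and each array is 1 animal. The fit was tested on simulated data: of 67 sets changed by a log2 difference of 1, it recovered 91%, 89.6%, 92.5% and 92.5% at days 2, 7, 21 and 60, and 40.3%, 37.3%, 55.2% and 47.8% of 67 others at a difference of 0.5. It called 10, 15, 8 and 4 unchanged sets. Besides these, only 66 of the 12913 sets were changed, by 2, and the noise was independent between sets. More sets were called in the data at each time, so the shares recovered there may differ. Alternatives were array weights, a further quantile normalization, a filter on the dimmest 25% of sets, trended robust variances, the replicate number as a block, the 3′ to 5′ distance of Gapdh as a covariate, the groups of a contrast alone and leaving out arrays. Motifs and scores per animal were computed with Python 3.11.15 and SciPy 1.17.1.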

Additional observations from a re-analysis of the deposited data

Results flagged for a closer look

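In 17 of the 195 groups of animals checked, 1 animal stood apart from the rest of its group by Dixon's criterion, which chance meets in about 1 in 20 groups. Spi-7 replicate 5 was the low animal in 6 of them: the 3′ set of Gapdh (8.83, next lowest 9.47), Ldhb (10.83, next 11.38), Dld (6.34, next 7.51), Idh3b (7.86, next 8.64), Mdh1 (11.19, next 11.82) and Mdh2 (8.68, next 9.03). Without this array the number of sets of the cycle called in the F-test was 8 and not 3, and without Spi-60 replicate 8 it was 5. Over all sets the F-test called 2827 without Spi-7 replicate 5 and 2083 without Spi-60 replicate 8, against 2098 with all arrays.

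Among the Spi-2 animals, replicate 2 was high for Pdha1 (9.89) and Sucla2 (10.63), replicate 1 was low for Idh3g (9.61) and high for Dlst (9.75), and replicate 3 was low for Cs (5.69). In Spi-21, replicate 7 was low for Aldoc (11.65) and Idh2 (8.78), and replicate 1 was high for Hk2 (5.78). In Spi-60, replicate 5 was low for Pfkl (5.26) and replicate 8 high for the 5′ set of Gapdh (7.55). Control replicate 2 was high for the glycolysis minus cycle mean (0.11, next -0.03).

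The effect of injury differed between late and early groups for 11 probe sets by limma's contrast. The difference was positive for Gpi (0.59), Pfkm (0.42), Aldoa (0.56), Aldoc (0.80) and Eno1 (0.40) and negative for Pfkp (-0.40), both sets of Pgk1 (-0.38 and -0.44), Pdha1 (-0.42), Dld (-0.75) and Idh1 (-0.43). Late and early arrays come from different studies, and the study and the time cannot be told apart.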

How the results depend on the processing

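No called probe set changed sign in the alternatives run. Glycolysis and cycle probe sets called in the F-test numbered 5 and 3, and 9 and 8 with array weights. At day 2, glycolysis had 2 calls, 1 after a further quantile normalization or with both groups fitted alone and 4 with weights (1 of them higher), and the cycle 4, or 2 with the 3′ to 5′ covariate. At day 7, glycolysis had 1, or 3 with weights, and the cycle 1, 2 with weights or without Spi-21 replicates 1 to 3, and 3 with both groups alone. At day 21, glycolysis had 1, a lower one, and 0 with the covariate or without Spi-21 replicates 1 to 3. After quantile normalization it had 2 higher and 0 lower, so that the direction of its calls turned. The cycle had 6, or 1 without Spi-21 replicates 1 to 3, when 680 of all sets were called at day 21, against 2148. At day 60, glycolysis had 2, 1 with both groups alone and 0 with the covariate, and the cycle 4, 8 with weights (2 of them higher) and 0 with the covariate. The cycle's late minus early calls were 3, and 5 with weights. Over all sets 267 were called at day 60 with the covariate, against 2207 without it, and 4082 in the F-test with weights, against 2098. With weights 2275, 1530 and 3233 of all sets were called at days 2, 7 and 60, against 1146, 334 and 2207. Without Spi-21 replicates 1 to 3, 492 of all sets were called at day 7. With the covariate 768 were called at day 2 and 1958 at day 21. The covariate differs between Spi-60 and Control without overlap, and how much of the day-60 changes goes with it was not tested.

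Leaving out 1 array gave 4 to 7 (glycolysis) and 3 to 8 (cycle) F-test calls, 1 to 3 and 3 to 4 calls at day 2, 0 to 2 and 1 to 1 at day 7, 0 to 2 and 4 to 6 at day 21, 2 to 3 and 3 to 6 at day 60 and 6 to 9 and 2 to 4 late against early. Over all sets the F-test then called 1484 to 2827, against 2098 with all arrays. Glycolysis lost a call at days 2 and 7 without Control replicate 1 only. The glycolysis minus cycle mean stayed between 0.252 and 0.316 at day 2, 0.125 and 0.198 at day 7, 0.314 and 0.382 at day 21 and 0.409 and 0.489 at day 60. The replicate numbers do not pair the arrays: of 51 pairs with the same number 11 had deviations correlated over 0.1 (median -0.0414, against 0.00551 for different numbers). With the number as a replicate block, glycolysis had 0 calls at day 21, and every other count stayed within 1.5 times its value.

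Exact two-sided permutation tests of the 48 isozyme and subunit differences, chosen after values were seen, gave 4 with an adjusted p = 0.0485 (p = 0.00404, the smallest possible at these days): Aldoa minus Aldoc and Idh3a minus Idh3b at days 21 and 60. The smaller groups allow no p under 0.00952 at day 2 and 0.0159 at day 7, so these tests cannot set early against late times. Aldoa minus Aldoc had these smallest values at days 2 and 7, without overlap (adjusted p = 0.0508 and 0.0693). With any 1 array of Control or of the same day left out, the 4 differences at days 21 and 60 were 0.45 to 0.54, 0.51 to 0.62, 0.34 to 0.43 and 0.47 to 0.62. They were then no longer past the threshold, as fewer arrays also allow only a larger p. The fits of single genes without Spi-21 replicates 1 to 3 or with the groups alone, and the late against early contrast without Spi-21 replicates 1 to 3 or without Control, were also chosen after seeing the data.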
